A study of Homo sapiens with 6 samples.

Results

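Collagens are matrix proteins built from 3 polypeptide chains wound into a triple helix, and each chain is the product of its own gene. The chain genes were taken as the rows of the count table whose symbol reads COL, digits, A and digits and nothing more, which gave 44 of the 54261 gene rows: 11 chains of fibrillar collagens, 8 of basement membrane collagens and 25 others. RNA came from 786-O, an established human renal cell carcinoma line labelled control, and from 7R, a line of 786-O cells labelled sunitinib-resistant, with 3 libraries of each line (called control and resistant here). Sunitinib is an inhibitor of receptor tyrosine kinases such as the VEGF and PDGF receptors. The labels leave unsaid whether drug was present at harvest, whether 7R is 1 clone, and whether separate cultures were used. The p-values therefore measure only how these libraries vary, a variation that may be technical.

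Fibrillar collagens (types I, II, III, V, XI, XXIV and XXVII) form the ropes of connective tissue. Type IV collagen forms the sheet of every basement membrane, including the one under kidney tubules and the one of the glomerulus, and types XV and XVIII sit at the edge of that sheet, where the end of the type XVIII chain can be cut off as endostatin, an inhibitor of blood vessel growth. The other collagens bind to fibrils (the FACIT group), make beaded filaments (type VI), anchoring fibrils (type VII) or short-chain networks (types VIII and X), or span the cell membrane.

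Libraries held 37919629 to 52221491 counts, and a count of 0 allows up to 3 counts, or 0.0574 to 0.0791 CPM (counts scaled to a fixed library total), for counting error only. This range uses library totals before TMM scaling, whereas the CPM values of genes are TMM-scaled, so its spread does not carry over to them. Markers of the labelled cell type were present: all 6 renal carcinoma genes listed (PAX8, PAX2, KRT8, KRT18, VIM and CDH2) had at least 1 CPM. They summed to between 12604 and 13760 CPM in control and between 3644 and 4537 CPM in resistant libraries. Most of this was VIM, at 9982 CPM in control and 2405 CPM in resistant libraries. The extraction text names a brain region; of 10 brain markers 8 were below 1 CPM, MOG was at 0 in every library, and the list summed to between 28.99 and 31.4 CPM in control and between 40.6 and 44.4 CPM in resistant libraries, most of it MBP. Fold changes were scaled by TMM factors and tested with edgeR's quasi-likelihood test. Across all genes the fold change ran against the GC content of the transcripts (Spearman's rho -0.68 over 14314 genes, which are not independent replicates), so each chain is given as counted and again adjusted for GC content and transcript length. Among the renal carcinoma genes, PAX8 and PAX2 turned from -0.42 and -1.10 on the log2 scale as counted to 0.49 and 0.22 adjusted. CDH2 did not pass the test as counted (0.16) and was lower adjusted (-0.60). VIM and KRT8 were lower in each fit, and KRT18 as counted only. Scaling by library size alone would raise the median log2 fold change of all genes from 0.05 to 0.39.

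Of the 44 chains, 22 passed the filter on low counts and were tested, 17 of them with a mean of at least 1 CPM. As counted, 8 tested chains rose and 11 fell in 7R at an adjusted p of 0.05, against 39.3% of all genes tested called higher and 36.9% called lower (76.2% in either direction). The median log2 fold change was -0.10 over the tested chains and 0.05 over all genes tested. Scaled by library size alone, 9 chains were higher and 8 lower, against 7848 higher and 4721 lower of the 16642 genes tested. Of the called genes 62.4% were then higher, and of the called chains 52.9%. After adjustment for GC content and length 10 chains were higher and 6 lower, where 33.8% and 33.1% of all genes were called (66.9% in either direction). By at least 2-fold, 5 chains were higher and 7 lower as counted (27.0% and 22.4% of all genes), and 7 were higher and 4 lower after adjustment (14.2% and 9.44%). Their median was then 0.57, against 0.01 for all genes. The libraries of the lines did not overlap for 20 of the 22 tested chains, against 80.3% of all genes tested. Chains were called in both directions in each fit. COL1A2, COL3A1, COL9A2, COL15A1 and COL24A1 passed the filter through the resistant libraries only and COL17A1 through the control libraries only, so the filter itself favoured a difference in these.

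**Figure D1:**
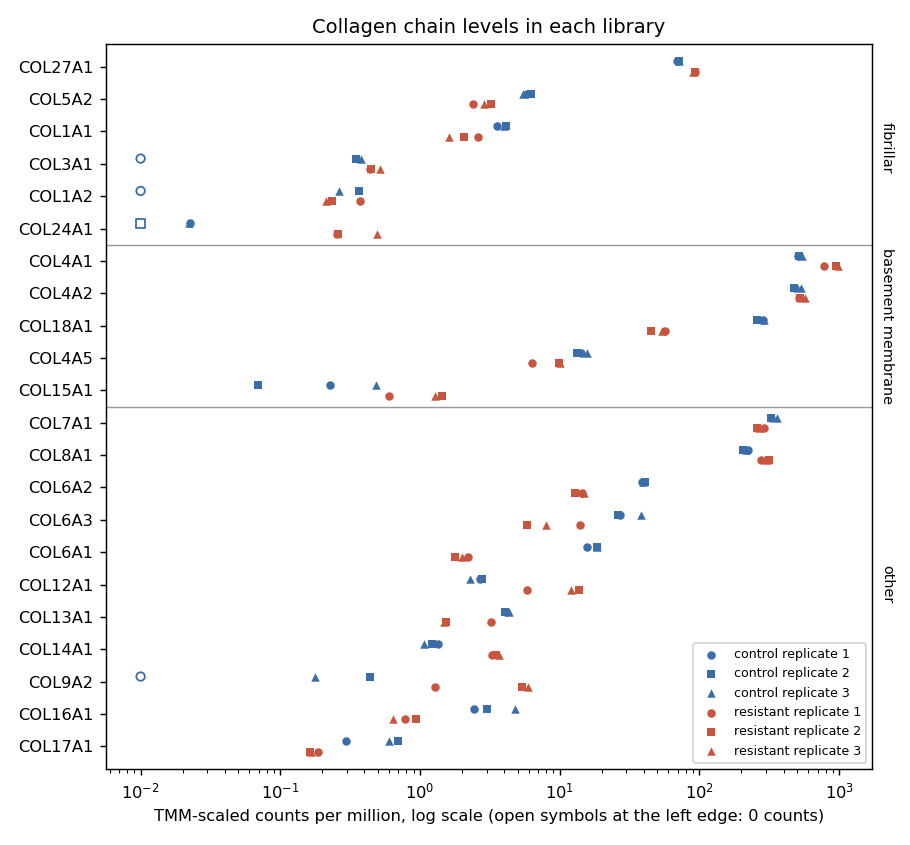
Level of each tested collagen chain in the 6 libraries, in TMM-scaled CPM on a log scale, with fibrillar, basement membrane and other chains apart; each symbol is 1 library and open symbols at the left edge mark 0 counts. COL4A1, COL4A2, COL7A1 and COL8A1 lie above 200 CPM in every library, COL18A1 drops from 257 or more to 57.1 or less, and the red symbols of COL9A2 and COL24A1 lie far to the right of the blue ones.

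The chain genes with the most counts were COL4A1, COL4A2, COL7A1, COL8A1, COL18A1 and COL27A1. Together they held 93.9% ± 0.277 (SD, n = 3) of collagen counts in control and 97.1% ± 0.00607 in resistant libraries. COL4A1 made up 25.4%, 26.1% and 25.2% of the collagen counts of the control libraries and 37.7%, 42.2% and 41.9% of those of the resistant ones. COL18A1 made up 14.1%, 13.1% and 13.6% in control and 2.76%, 2.02% and 2.33% in resistant libraries. The share of COL4A2 stayed at 24.3% ± 0.505 in control and 24.2% ± 0.781 in resistant libraries.

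**Figure D2:**
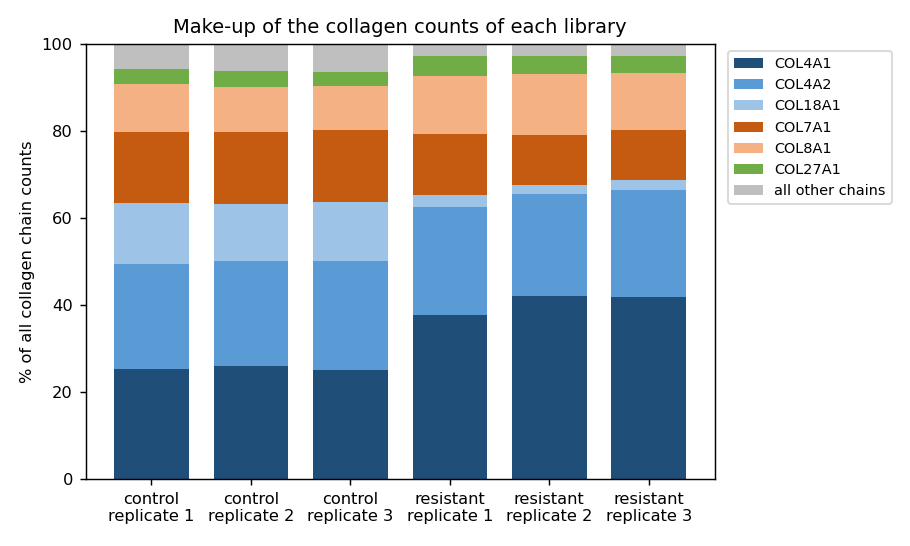
Share of each of the 6 most counted collagen chains, and of all other chains, in the collagen chain counts of each library (bars stack to 100%). COL4A1 takes at most 26.1% of a control library and at least 37.7% of a resistant one, while COL18A1 takes at least 13.1% and at most 2.76%.

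The summed level of all 44 chains was 2005, 1963 and 2147 CPM in control and 2065, 2249 and 2325 CPM in resistant libraries, a fold of 1.09 whose libraries overlapped (exact two-sided permutation test, p = 0.20, smallest possible p 0.10). Without COL4A1 the sum was 1518 ± 79.6 CPM in control and 1312 ± 34.3 CPM in resistant libraries, so the direction turned without this 1 chain. Adjusted for GC content and length, the sum over the tested chains was higher in each resistant library, with a fold of 1.70 (exact permutation test, p = 0.10).

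Per kilobase of the longest annotated transcript, COL4A1 and COL4A2 had the highest levels in control libraries, at 78.7 ± 2.65 and 76.4 ± 5.19 CPM per kb (SD, n = 3), and these neighbours did not differ beyond their spread. COL18A1 followed at 42.1 ± 2.77, COL8A1 at 37.4 ± 1.53 and COL7A1 at 36.2 ± 2.0 CPM per kb, the last pair again within their spread. COL6A2 at 11.5 and COL27A1 at 9.08 CPM per kb came next, and each other chain was below 5. In resistant libraries COL4A1 stood alone at 136 ± 16.04 CPM per kb, ahead of COL4A2 at 82.4 ± 4.59, COL8A1 at 52.1, COL7A1 at 29.3 and COL27A1 at 11.8, and COL18A1 had dropped to 7.92 CPM per kb.

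Among the basement membrane chains, 5 of 8 were tested, 2 were higher and 2 lower as counted. After adjustment 3 were higher and 2 lower, with medians of 0.11 as counted and 0.50 adjusted on the log2 scale. Of all genes tested, 39.3% were called higher and 36.9% lower as counted, and 33.8% and 33.1% after adjustment. The medians include COL15A1, which passed the low-count filter through the resistant libraries only. COL4A1 and COL4A2 encode the chains of the common type IV protomer, in which COL4A1 chains outnumber COL4A2 chains. The genes lie head to head on chromosome 13 in the RefSeq annotation and are known to be transcribed in opposite directions from a shared promoter, so the sequence between their starts is shown. Its 126 bases (GRCh38.p14, chr13:110307158-110307283, plus strand, with the start of COL4A1 to the left and of COL4A2 to the right) are printed with the motifs GGGCGG and CCAAT in capitals, searched on both strands.

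between COL4A1 and COL4A2: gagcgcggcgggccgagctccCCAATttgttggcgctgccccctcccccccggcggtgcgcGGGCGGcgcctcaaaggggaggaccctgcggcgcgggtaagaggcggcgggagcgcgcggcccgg

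This stretch has a GC content of 80.2% and holds 1 GGGCGG and 1 CCAAT, motifs found in 34.6% and 21.1% of the 35116 upstream windows of the same length in the RefSeq promoter table. It holds no TATAAA, which 5.87% of those windows hold. COL4A1 was at 509, 512 and 541 CPM in control and at 779, 949.5 and 974 CPM in resistant libraries. Every resistant library lay above every control library, and the log2 fold change was 0.79 ± 0.11 (SE, adjusted p = 2.80e-05), or 1.34 ± 0.10 after adjustment for GC content and length. COL4A2 was at 481, 472 and 535 CPM in control and at 513, 525 and 569 CPM in resistant libraries. These overlapped, and the log2 fold change of 0.11 ± 0.10 did not pass the test (adjusted p = 0.319), while the adjusted value of 0.50 ± 0.08 did (adjusted p = 1.15e-04), as did the value scaled by library size alone.

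The ratio of COL4A1 to COL4A2 counts, which does not depend on library scaling, was 1.06, 1.08 and 1.011 in control and 1.52, 1.81 and 1.71 in resistant libraries. The groups did not overlap and the ratio was 1.596-fold higher in the resistant line (exact two-sided permutation test, p = 0.10, the smallest possible with 3 against 3; adjusted over the 4 pairs of chains compared, 0.133). The transcripts differ little in GC content, at 53.6% for COL4A1 and 52.5% for COL4A2, and the ratio was 1.77-fold higher after adjustment. Antisense genes whose exons overlap COL4A2 (COL4A2-AS1 and COL4A2-AS2) had at most 2 counts in a library.

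**Figure D3:**
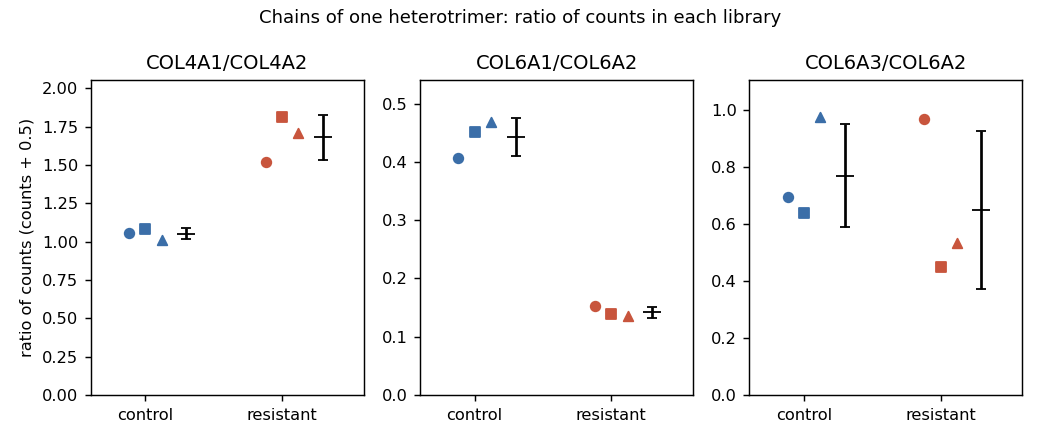
Ratio of counts between chains of the same heterotrimer, COL4A1 to COL4A2, COL6A1 to COL6A2 and COL6A3 to COL6A2, in each library (symbols) with the mean and SD of each line (n = 3, black). COL4A1 to COL4A2 lies between 1.011 and 1.08 in control and between 1.52 and 1.81 in resistant libraries; COL6A1 to COL6A2 drops from 0.406 or more to 0.153 or less; COL6A3 to COL6A2 overlaps.

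The remaining type IV chains make up the networks of the glomerulus and of other specialised basement membranes. COL4A5 was at 14.1, 13.3 and 15.6 CPM in control and at 6.34, 9.90 and 10.03 CPM in resistant libraries. It was lower in all resistant libraries, by a log2 fold change of -0.71 ± 0.18 (adjusted p = 0.00312, GC-adjusted -0.57), but did not pass the test when scaled by library size alone. Its partners were barely counted. COL4A6, which lies head to head with COL4A5, had 5 counts in all control libraries and 2 in all resistant ones, COL4A3 had 0 and 2, and COL4A4 had 4 and 1, too few to test.

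COL18A1, which encodes the chain that carries endostatin, had the smallest p of the chains. It was at 283, 257 and 292 CPM in control and at 57.1, 45.3 and 54.1 CPM in resistant libraries, a 5.32-fold decrease (log2 fold change -2.41 ± 0.12, adjusted p = 2.88e-08). It had the highest GC content of the tested chains, 67.2%, and after adjustment the log2 fold change was -1.02 ± 0.07 (adjusted p = 2.49e-07), so it fell either way but by a smaller amount. The gene is known to make isoforms with different amino ends from separate starts, which a sum over the gene cannot tell apart. The 250 bases before each of the 2 starts in the RefSeq promoter table are shown to set the promoters beside each other (GRCh38.p14, plus strand, chr21:45404915-45405164 and chr21:45455272-45455521), with GGGCGG on either strand, which reads CCGCCC on the other one, in capitals.

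COL18A1 start 1: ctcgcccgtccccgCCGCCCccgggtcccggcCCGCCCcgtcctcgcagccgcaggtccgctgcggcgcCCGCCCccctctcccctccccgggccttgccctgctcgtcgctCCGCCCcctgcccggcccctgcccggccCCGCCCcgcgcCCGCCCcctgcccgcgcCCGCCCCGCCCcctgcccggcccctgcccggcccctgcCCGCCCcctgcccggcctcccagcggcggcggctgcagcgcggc
COL18A1 start 2: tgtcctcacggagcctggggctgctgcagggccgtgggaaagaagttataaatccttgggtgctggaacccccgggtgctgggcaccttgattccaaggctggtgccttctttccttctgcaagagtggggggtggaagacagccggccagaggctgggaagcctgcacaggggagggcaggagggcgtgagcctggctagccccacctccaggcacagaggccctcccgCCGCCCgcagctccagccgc

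The first window has a GC content of 88.4% and 9 matches to GGGCGG, some of them overlapping, and the second has 66.4% and 1 match. A GGGCGG was found in 42.6% of all windows of this length, and in 12 of the 17 windows of the 15 tested chains that the promoter table holds. The second window also holds TATAAA, found in 10.7% of all windows. Antisense COL18A1-AS1 and COL18A1-AS2 had at most 2 counts in a library. COL15A1, the relative of COL18A1, had 10, 3 and 22 counts in control and 26, 62 and 54 in resistant libraries. It rose by 2.07 ± 0.59 on the log2 scale (adjusted p = 0.00653, GC-adjusted 2.77) at a level near 1 CPM, and by 2.84 without control replicate 3. It passed the filter on low counts through the resistant libraries only.

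Of the fibrillar chains, 6 of 11 were tested, with 2 higher and 2 lower as counted, and 2 higher and 1 lower after adjustment. Over all genes tested the shares were 39.3% and 36.9%, then 33.8% and 33.1%. The fibrillar medians were 0.37 and 1.25 on the log2 scale. They include COL1A2, COL3A1 and COL24A1, which passed the low-count filter through the resistant libraries only, so the filter itself favoured higher medians. COL1A1, COL5A2 and COL27A1, which passed through both lines, were at -0.89, -1.05 and 0.38 as counted and 0.22, -1.26 and 1.48 adjusted. The most abundant was COL27A1, a chain of cartilage and other tissues that makes thin fibrils. It was at 69.4, 71.1 and 71.7 CPM in control and at 93.3, 93.3 and 90.2 CPM in resistant libraries, a narrow spread with no overlap. The log2 fold change was 0.38 ± 0.10 (adjusted p = 0.00308), and 1.48 ± 0.08 after adjustment. Its transcripts have a GC content of 61.3%. It held most of the fibrillar level: the fibrillar sum was 81.1 ± 1.83 CPM in control and 98.5 ± 1.98 CPM in resistant libraries, and without COL27A1 it was 10.3 ± 0.830 and 6.23 ± 0.210 CPM.

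The chains of the major tissue collagens were scarce. COL1A1, the main chain of type I collagen, had 156, 179 and 182 counts in control and 112, 89 and 69 in resistant libraries. It was lower as counted (log2 fold change -0.89 ± 0.23, adjusted p = 0.00336) and did not pass after adjustment (0.22, adjusted p = 0.365). Its partner COL1A2 had 0, 16 and 12 counts in control and 16, 10 and 9 in resistant libraries, and COL3A1 of type III collagen had 0, 15 and 17 and then 19, 19 and 22. Neither passed the test (adjusted p = 0.693 and 0.262), and control replicate 1 held no count of either. The ratio of COL1A1 to COL1A2 (counts plus 0.5), the last of the 4 pairs, was 313, 10.9 and 14.6 in control and 6.82, 8.52 and 7.32 in resistant libraries (exact two-sided permutation test, p = 0.10, adjusted over the 4 pairs 0.133). Its log2 difference of -2.29 was -0.75 without control replicate 1. COL5A2, a chain of the type V collagen that starts fibrils, was at 5.79, 6.22 and 5.50 CPM in control and fell to 2.38, 3.22 and 2.87 CPM in resistant libraries (log2 fold change -1.05 ± 0.19, adjusted p = 2.68e-04, GC-adjusted -1.26), whereas COL5A1, with which it assembles, had only 16 and 22 counts over the lines. COL24A1 had 1, 0 and 1 counts in control and 11, 11 and 21 in resistant libraries. The ratio was 22.2 with an exact 95% interval of 5.79 to 189 (Clopper-Pearson, counting error only, without the spread between libraries). COL24A1 passed the filter on low counts through the resistant libraries only. COL2A1 of cartilage had no count in any library, COL11A1 had 0 and 5, COL11A2 had 1 and 0, and COL5A3 had 3 and 3.

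Of 7 fibroblast markers, LUM and PDGFRB were higher in the resistant libraries as counted and after adjustment (2.85 and 2.37 on the log2 scale). Their part in the result was not tested. The list summed to between 6.65 and 7.65 CPM in control and between 25.7 and 53.9 CPM in resistant libraries. LUM was at 30.3 ± 12.4 and PDGFRB at 11.5 ± 2.69 CPM in the latter. THY1, with 149 counts in all control and 120 in all resistant libraries, did not pass the test as counted (log2 fold change -0.27). After adjustment THY1 was called higher (0.84, adjusted p = 0.0409). DCN had 9 counts in all control and 30 in all resistant libraries, PDGFRA had 8 and 1, FAP had 5 and 4 and DPT had 4 and 0, while COL1A2 was at 0.211 ± 0.190 and 0.272 ± 0.0858 CPM. In bulk RNA fewer cells of a type and less RNA per cell cannot be told apart.

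Among the other collagens, 11 of 25 were tested, with 4 higher and 7 lower as counted and 5 higher and 3 lower after adjustment. These counts stand beside 39.3% higher and 36.9% lower of all genes tested, and 33.8% and 33.1% after adjustment. The medians of these collagens were -1.0 and 0.38 on the log2 scale. They include COL9A2, which passed the low-count filter through the resistant libraries only, and COL17A1, which passed through the control libraries only. Of the 5 type VI chains, which assemble into beaded filaments near basement membranes, 3 were tested and these were lower as counted. COL6A1 was at 15.8, 18.4 and 18.4 CPM in control and at 2.20, 1.78 and 2.0 CPM in resistant libraries, a fall of 8.80-fold (log2 fold change -3.14 ± 0.16, adjusted p = 4.29e-08, GC-adjusted -1.76). COL6A2 was at 38.8, 40.8 and 39.3 CPM in control and at 14.4, 12.9 and 14.9 CPM in resistant libraries. Its log2 fold change was -1.49 ± 0.11 (adjusted p = 3.38e-07) as counted but -0.08 ± 0.09 after adjustment, where it no longer passed (adjusted p = 0.454). COL6A3 was at 27.0, 26.1 and 38.4 CPM in control and at 13.97, 5.79 and 7.91 CPM in resistant libraries, lower in each of them but with resistant replicate 1 highest (log2 fold change -1.72 ± 0.27, GC-adjusted -1.27).

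COL6A1 and COL6A2 have almost the same GC content, 64.3% and 65.1%, and lie in the same cluster on chromosome 21. The ratio of COL6A1 to COL6A2 counts was 0.406, 0.452 and 0.469 in control and 0.153, 0.138 and 0.135 in resistant libraries. The groups did not overlap, and the ratio was 0.322 of that in control, or 0.312 after adjustment (exact two-sided permutation test, p = 0.10, adjusted over the 4 pairs 0.133). The ratio of COL6A3 to COL6A2 counts was 0.695, 0.639 and 0.976 in control and 0.968, 0.449 and 0.533 in resistant libraries. These overlapped (p = 0.40 in the same exact test). After adjustment the ratio was 0.949, 0.889 and 1.387 in control and 0.766, 0.293 and 0.382 in resistant libraries, without overlap. It was then 0.419 of that in control (same exact test, p = 0.10). COL6A3 has a GC content of 54.2%. COL6A5 and COL6A6 had at most 4 counts over a line.

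COL7A1, the single chain of the anchoring fibrils that fasten epithelium to the tissue below, was at 325, 325 and 357 CPM in control and at 289, 259 and 267 CPM in resistant libraries. The groups did not overlap, but the direction depended on the processing. The log2 fold change was -0.30 ± 0.10 as counted (adjusted p = 0.0127), -0.27 without resistant replicate 2 (adjusted p = 0.0559), 0.04 scaled by library size alone (adjusted p = 0.724), and 0.90 ± 0.07 after adjustment (adjusted p = 5.70e-07). Its transcripts have a GC content of 64.8%. COL8A1, a chain of the short-chain network made by vessel walls and by many tumour cells, was at 221, 204 and 215 CPM in control and rose to 275, 313 and 304 CPM in resistant libraries (log2 fold change 0.48 ± 0.10, adjusted p = 7.0e-04, GC-adjusted 0.64). COL8A2, its partner in many tissues, had 5 counts in all control libraries and 2 in all resistant ones.

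Of the FACIT chains, which sit on the surface of fibrils, 4 of 10 were tested, and 3 were higher and 1 lower both as counted and after adjustment. The shares of all genes tested were 39.3% higher and 36.9% lower as counted and 33.8% and 33.1% after adjustment. COL12A1 was at 2.68, 2.76 and 2.30 CPM in control and at 5.78, 13.8 and 12.03 CPM in resistant libraries (log2 fold change 2.03 ± 0.28, adjusted p = 3.31e-05, GC-adjusted 1.47). Resistant replicate 1 was the lowest of its line, though above every control library. Over the genes as a whole, too, this library differed from resistant replicates 2 and 3 (chi-square per degree of freedom 62.9 and 60.1). Those differed less from each other (8.94). Control replicate 1 likewise differed more from control replicates 2 and 3 (26.5 and 35.5) than those did from each other (12.4). COL14A1 rose from 1.21 ± 0.140 to 3.47 ± 0.182 CPM (GC-adjusted 1.20 on the log2 scale). COL9A2, a chain of the type IX collagen of cartilage, had 0, 19 and 8 counts in control and 55, 229 and 250 in resistant libraries. The ratio was 20.4 with an exact 95% interval of 13.9 to 31.3 (counting error only, without the spread between libraries). COL9A2 passed the filter on low counts through the resistant libraries only. Its log2 fold change of 4.33 ± 0.74 (adjusted p = 1.81e-04) was 5.45 without control replicate 2, 3.71 without control replicate 1 and 5.85 after adjustment. Its transcripts have a GC content of 65.2%. The other chains of the type IX trimer were at the limit of detection, with no count of COL9A1 and 3 and 2 counts of COL9A3 over the lines. The 250 bases before the start of COL9A2 (GRCh38.p14, chr1:40317287-40317536, minus strand) are shown because this chain had the largest log2 fold change of those tested, with GGGCGG on either strand in capitals.

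COL9A2 start 1: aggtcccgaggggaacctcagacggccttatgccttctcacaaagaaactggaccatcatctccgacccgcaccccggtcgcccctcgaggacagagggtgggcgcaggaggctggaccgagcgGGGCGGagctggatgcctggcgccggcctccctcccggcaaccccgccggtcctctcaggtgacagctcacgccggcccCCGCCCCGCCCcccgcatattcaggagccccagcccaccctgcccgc

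That window has a GC content of 71.6% and 3 matches to GGGCGG, with no CCAAT and no TATAAA in it. COL16A1 went the other way from the other FACIT chains, from 3.397 ± 1.22 to 0.785 ± 0.149 CPM (log2 fold change -2.11 ± 0.31, adjusted p = 5.64e-05, GC-adjusted -0.80 with an adjusted p of 0.0351). COL16A1 did not pass with GC content alone adjusted (adjusted p = 0.0581), with a replicate block added to the adjustment (0.0604), or with the adjustment and without resistant replicate 1 (0.0743). Of the membrane-spanning chains, COL13A1 was at 4.16 ± 0.124 CPM in control and at 3.22, 1.54 and 1.48 CPM in resistant libraries (log2 fold change -1.0 ± 0.29, adjusted p = 0.00711), and it did not pass after adjustment (0.38, adjusted p = 0.190) or with library size alone. COL17A1, a hemidesmosome protein of epithelia, had 13, 30 and 27 counts in control and 8, 7 and 7 in resistant libraries (log2 fold change -1.61 ± 0.52, adjusted p = 0.0133). It did not pass after adjustment (adjusted p = 0.160) or without control replicate 2 (adjusted p = 0.0600). COL23A1 and COL25A1 had no count in any library. The remaining untested chains had few counts: COL10A1 had none, COL19A1 had 0 over control and 5 over resistant libraries, COL20A1 had 0 and 7, COL21A1 had 1 and 3, COL22A1 had 0 and 1, COL26A1 had 2 and 11, and COL28A1 had 6 and 23.

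**Figure D4:**
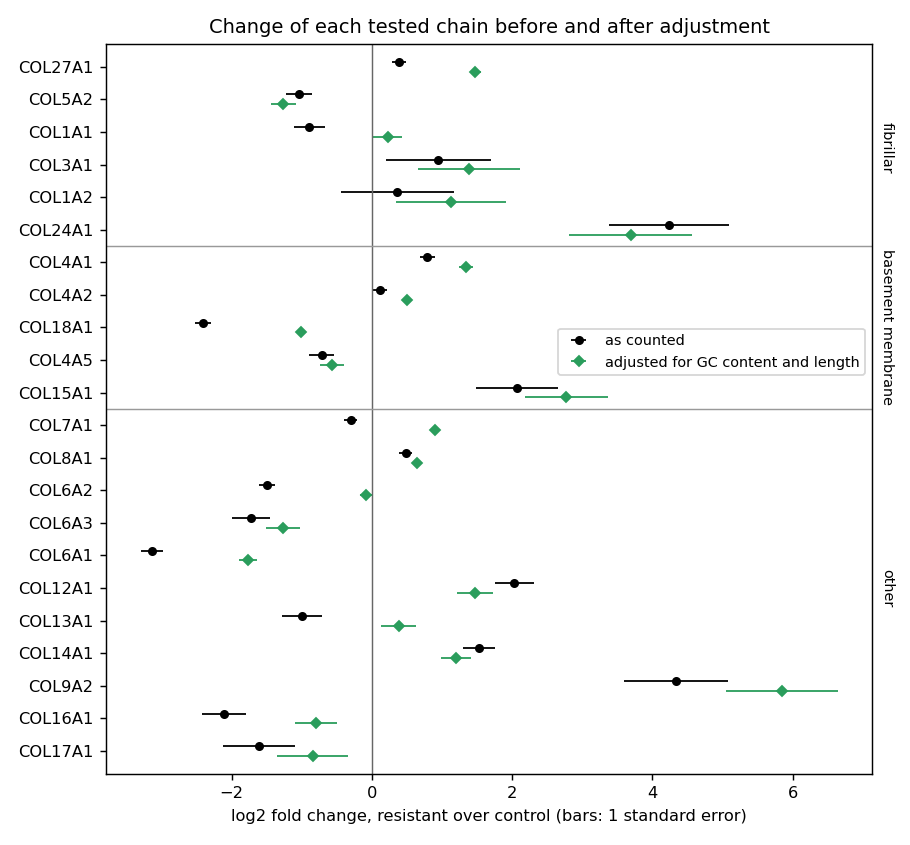
log2 fold change, resistant over control, of the 22 tested chains as counted (black circles) and after adjustment for GC content and length (green diamonds), with 1 standard error on each side and the classes apart. COL7A1 changes side between the fits (-0.30 and 0.90), COL6A2 moves from -1.49 to -0.08, and COL6A1, COL18A1 and COL5A2 stay below 0 while COL4A1, COL9A2 and COL12A1 stay above it.

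The dependence of these calls on GC content was described across the chains. The tested chains had a median GC content of 55.5% (45.1% to 67.2%), against 48.8% for tested genes with a value. Over the 22 chains, which share libraries and base composition, GC content and log2 fold change had a Spearman's rho of -0.47 as counted and -0.24 after adjustment. Both fits called 8 chains higher (COL4A1, COL8A1, COL9A2, COL12A1, COL14A1, COL15A1, COL24A1 and COL27A1) and 6 lower (COL4A5, COL5A2, COL6A1, COL6A3, COL16A1 and COL18A1). The calls of COL1A1, COL6A2, COL13A1 and COL17A1 were present only as counted, that of COL4A2 only after adjustment, and COL7A1 was called in opposite directions.

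**Figure D5:**
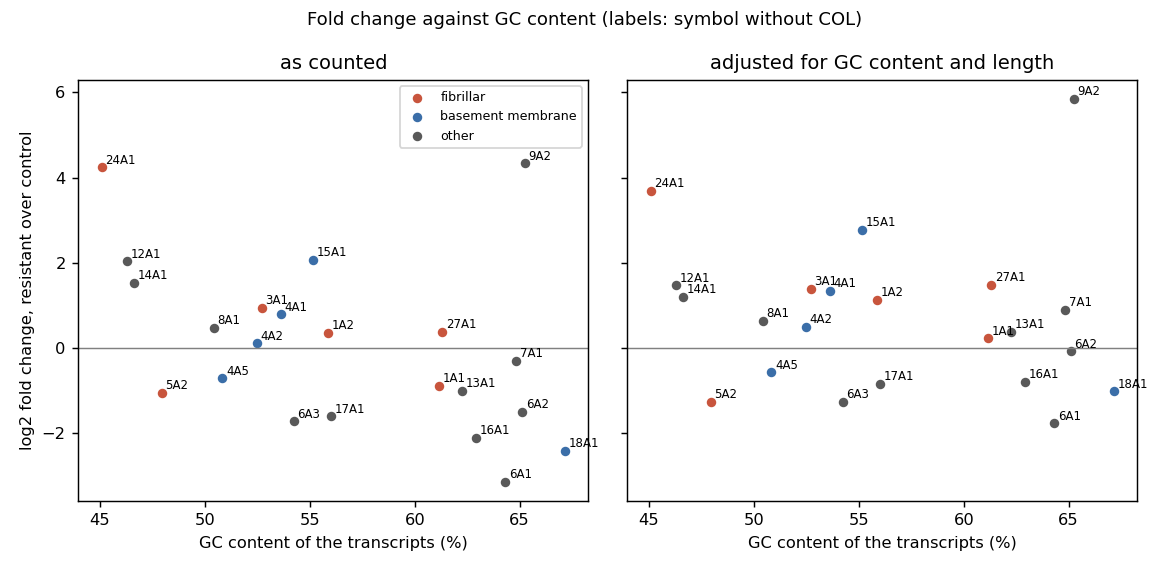
log2 fold change of each tested chain (labelled by its symbol without COL) against the GC content of its transcripts in percent, as counted on the left and adjusted for GC content and length on the right, coloured by class. On the left most chains above 60% GC lie below 0, apart from COL27A1 and COL9A2; on the right COL27A1, COL7A1 and COL9A2 lie above 0 and COL6A1, COL16A1 and COL18A1 stay below it.

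The enzymes and partners of collagen were counted from 6 lists covering 68 genes, of which 51 were tested. As counted 18 were higher and 23 lower, and after adjustment 22 were higher and 13 lower, with medians of -0.01 and 0.09. The shares of all genes tested, against which these counts and those of each list are to be read, were 39.3% higher and 36.9% lower as counted and 33.8% and 33.1% after adjustment. Of 19 tested genes that hydroxylate, fold and export collagen, 7 were higher and 11 lower as counted, but 7 higher and 2 lower after adjustment. P3H3, a prolyl 3-hydroxylase family member, was at 180 ± 11.3 CPM in control and 59.0 ± 5.40 CPM in resistant libraries, the collagen chaperone SERPINH1 at 135 ± 5.68 and 54.4 ± 3.72 CPM, the galactosyltransferase COLGALT1 at 671 ± 49.8 and 311 ± 29.3 CPM, and the prolyl isomerase PPIB at 316 ± 0.334 and 162 ± 10.8 CPM. None of these 4 passed after adjustment (log2 values of -0.13, -0.08, -0.10 and 0.08). PLOD1, PLOD3 and CRTAP were also lower as counted and did not pass after adjustment. The remaining genes called lower turned: P4HB, FKBP10, P3H1 and P4HA2 were at -0.53, -0.75, -0.72 and -0.29 as counted. After adjustment they were called higher (0.67, 0.44, 0.31 and 0.26). MIA3, which loads procollagen into transport carriers, rose from 40.2 ± 5.30 to 126 ± 30.3 CPM, the prolyl 4-hydroxylase subunit P4HA1 from 46.4 ± 9.29 to 131 ± 20.5 CPM and the prolyl 3-hydroxylase P3H2 from 137 ± 2.89 to 265 ± 39.9 CPM, and these 3 remained higher after adjustment (0.68, 0.50 and 0.89). FKBP14 and SEC24D were higher as counted (1.26 and 0.46) and did not pass after adjustment (-0.0063 and 0.09). The lysyl hydroxylase PLOD2 and the coat protein SEC23A turned from 0.52 to -0.76 and from 0.36 to -0.35. As counted, SEC23A did not pass without control replicate 2 or 3 or resistant replicate 2 or 3 (adjusted p of 0.141, 0.104, 0.0568 and 0.124).

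Of 11 tested genes of propeptide removal and cross-linking, 5 were higher and 3 lower, and 6 and 2 after adjustment. BMP1, the protease that removes the carboxyl propeptide of fibrillar procollagens, fell from 72.8 ± 7.66 to 9.998 ± 0.588 CPM (log2 fold change -2.86, GC-adjusted -1.58), while its relative TLL2 rose from 9.82 ± 0.529 to 34.3 ± 1.84 CPM (1.80 and 1.63). ADAMTS3, which removes amino propeptides, rose by 1.24 (GC-adjusted 0.47), and LOXL2, a lysyl oxidase that cross-links type IV collagen, had a log2 fold change of -3.21 (GC-adjusted -2.19). Of 5 tested collagen receptors, 2 were higher and 1 lower, and 1 higher and 3 lower after adjustment. The endocytic receptor MRC2 was at 259 ± 22.5 and 102 ± 8.25 CPM and did not pass after adjustment, and the integrin subunit ITGB1 turned from 0.53 to -0.66. Of 5 tested collagen-degrading proteases, 1 was higher and 3 lower, and 2 and 3 after adjustment. MMP14, a membrane-bound collagenase, fell from 776 ± 91.8 to 215 ± 17.2 CPM and the gelatinase MMP2, which it activates, from 40.0 ± 6.71 to 13.5 ± 1.99 CPM (GC-adjusted -0.77 and -0.69).

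Of 9 tested basement membrane partners of type IV collagen, 2 were higher and 5 lower as counted, and 4 higher and 3 lower after adjustment. The laminin chain LAMA5 rose from 13.8 ± 0.462 to 167 ± 20.2 CPM (log2 fold change 3.60 ± 0.13, GC-adjusted 4.77) and LAMB1 from 324 ± 9.12 to 415 ± 24.8 CPM (0.36, GC-adjusted 0.38), although LAMB1 did not pass without control replicate 2. SPARC, a collagen-binding glycoprotein, fell from 569.7 ± 9.75 to 346 ± 33.8 CPM (GC-adjusted -0.94). AGRN and LAMB2 were lower as counted (-1.30 and -1.07) and did not pass after adjustment (0.06 and 0.06). HSPG2, at 1564 ± 123 CPM in control and 1672 ± 67.4 CPM in resistant libraries, did not pass as counted (0.10). It was called higher after adjustment (1.12), as was NID1 (0.17 as counted, not passing, and 0.42 adjusted). Of 7 fibril-binding proteoglycans 2 were tested, and LUM, which encodes lumican and also stands among the fibroblast markers, rose from 1.69 ± 0.149 to 30.3 ± 12.4 CPM (4.16 ± 0.30, GC-adjusted 2.85).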

How the data were processed

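The values are raw counts for each gene symbol, as deposited by the authors, in 6 library columns with 0 left over. HISAT2 2.0.4 is named, per the submitters' processing notes. Not given in the sources used here were the counter, the strand setting, the build and the annotation, and overlapping genes may share reads. Groups follow the titles. Libraries held 37919629 to 52221491 counts. edgeR 4.0.16 (R 4.3.3) tested 16642 genes left by filterByExpr (TMM factors 0.867 to 1.14, quasi-likelihood test, Benjamini-Hochberg over all genes, threshold 0.05), with no covariate. A standard error is the size of the log2 fold change divided by the root of its F statistic. For the adjustment, spline terms for GC content (df 6) and for the log2 of length (df 5) were fitted to each library's deviations and used as offsets for the 14314 genes (86.0%) with values from GENCODE 29 basic transcripts. Chain ratios used counts plus 0.5 and an exact permutation test. Members, classes, lists and the rule for named genes (tested chains; of each list up to 4 with the smallest p at 5 CPM or more, and those against the majority at 20 CPM or more) were chosen with earlier results of these data known. Some further list members are named because the adjustment changed their call. Alternatives were other scalings, filters, DESeq2 1.42.0, a replicate block, GC content alone and each library left out. The tests were checked on simulated data. Promoter sequences are RefSeq's (GRCh38.p14), which held 32 of 44 chains.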

Additional observations from a re-analysis of the deposited data

How the results depend on the processing

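Adjustment for GC content changed more calls than the other settings tried. With GC content and length adjusted, GC content alone adjusted, and a replicate block with GC and length adjusted, the chains called lower numbered 6, 5 and 5, the fibrillar ones 1, 1 and 1, the other collagens 3, 2 and 2, and the enzymes and partners 13, 13 and 13. Without resistant replicate 1 the first of these gave 5, 1, 2 and 12. A filter of at least 1 CPM in 3 libraries left 1 fibrillar and 1 basement membrane chain higher, and library size alone left 1 basement membrane chain lower. That filter tested only 3 fibrillar and 4 basement membrane chains, so COL24A1 and COL15A1 were no longer tested. The 17 chains it did test kept their results. The cause of the changes with GC adjustment and with library size was not tested. As counted, the fits without 1 library each called 8 chains higher and 10 to 11 lower. With the adjustment, resistant replicate 1 was the only library left out, and 10 chains were higher and 5 lower.

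Of the genes called as counted, only chains and list members named by the rule are listed here. P4HB, FKBP10, P3H1, P4HA2, PLOD1 and PLOD3 also turned with GC content and length adjusted. In the same order as above, with the value without resistant replicate 1 last, log2 fold changes that turned were 0.22, 0.39, 0.21 and 0.11 for COL1A1, 0.90, 1.16, 0.90 and 0.93 for COL7A1 (0.040 by library size alone), and 0.38, 0.31, 0.33 and 0.033 for COL13A1. They were 0.084, 0.10, 0.084 and 0.093 for PPIB, -0.76, -0.77, -0.76 and -0.69 for PLOD2, and -0.35, -0.30, -0.36 and -0.27 for SEC23A. They were -0.66, -0.64, -0.66 and -0.59 for ITGB1, 0.056, 0.24, 0.056 and 0.067 for AGRN, and 0.056, 0.18, 0.050 and 0.15 for LAMB2. FKBP14 was at -0.0063 with GC and length adjusted and at -0.0057 with the block added, and MRC2 at 0.034 with GC content alone. As counted, the log2 difference of the sums was 0.12 for all chains, 0.28 for fibrillar, 0.19 for basement membrane and -0.07 for other collagens. Without the chain with the most counts of each set it was -0.21, -0.73, -0.40 and 0.14 in the same order. The sum of the other collagens was also higher by library size alone (0.27) and after adjustment (0.67).

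The replicate block alone called 8 chains higher and 11 lower, as without it, and 17 and 22 enzymes and partners, with SEC23A losing its call (adjusted p = 0.0651). The deviations of libraries with the same number from the mean of their line had correlations of -0.35, -0.06 and -0.21. Deviations within a line cancel over its 3 libraries, which ties these correlations to each other. This check therefore cannot tell whether the numbers pair the samples. DESeq2 called 8 chains higher and 11 lower. Depth limits the 22 untested chains, none of which had more than 38 counts in all.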
